A study of Mus musculus with 64 samples.

Results

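The genes of fatty acid oxidation and ketone body formation were followed here through the response to corticosterone (CORT) in liver, with hippocampus as the contrast. The set holds 33 genes, found by their symbols among the 55573 gene IDs of the continuous cohort and the 55414 of the acute cohort, and all 33 were present in both tables. Its rule names genes by function, and the set was drawn up with earlier results of these data known. Male Ube3a m-/p+ mice (AS) and wild-type mice (WT), F1 hybrids of C57BL/6J and 129sv aged 10 to 18 weeks, were used. AS mice lack exon 5 on the maternal allele of Ube3a, which encodes a ubiquitin ligase, and serve as a model of Angelman syndrome. In the continuous cohort, liver and hippocampus of 20 mice, 5 in each of 4 groups, were collected after 5 days with a subcutaneous pellet of 20 mg CORT or a cholesterol pellet (vehicle). In the acute cohort, hippocampus of 24 mice, 6 in each of 4 groups, was collected 3 h after a subcutaneous injection of 3 mg/kg CORT or of ethanol in PBS (vehicle). Libraries carry the letter L for liver or H for hippocampus and the number given in the labels, and H numbers start again in the acute cohort.

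Long-chain fatty acids enter hepatocytes, are activated to acyl-CoA and pass into mitochondria as carnitine esters, where the beta-oxidation spiral shortens them to acetyl-CoA. In fasting, the liver turns that acetyl-CoA into the ketone bodies acetoacetate and 3-hydroxybutyrate, which the brain can burn but the liver cannot. The nuclear receptor PPARalpha drives many of these genes, and glucocorticoids, acting through the glucocorticoid receptor (GR), are hormones of the fasted and stressed state.

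Counts on genes ranged from 18612550 to 20868924 in the livers, from 19112929 to 21783009 in the hippocampi of the continuous cohort and from 19049461 to 21052967 in the acute cohort, so that a count of 3, taken as the floor of detection for counting error only, was worth between 0.138 and 0.161 CPM, the unit used here for counts scaled to library size. Hepatocyte markers summed to between 88387 and 137252 CPM in the livers, and the list of 6 hippocampal neuron markers summed to between 5337 and 7549 CPM in the hippocampi. In the livers that list summed to between 78.9 and 233 CPM, most of it from Prox1 (51.3 to 193 CPM), which hepatocytes also express, and Syt1 (3.94 to 27.1 CPM), while Snap25 and Slc17a7 did not exceed 0.983 and 0.577 CPM. Ube3a counts did not overlap between genotypes in liver, with 41.8 to 54.4 CPM in WT and 28.5 to 38.6 CPM in AS mice. They overlapped in hippocampus, at 72.9 to 98.0 against 69.2 to 97.5 CPM in the continuous cohort and 52.5 to 84.7 against 64.1 to 82.0 CPM in the acute cohort. Reads of exons outside the deletion are part of these counts, so they do not check the labels there. Of 8 genes known to respond to GR, 4 rose with CORT in WT livers and 5 in AS livers, among them Fkbp5, with log2 fold changes of 3.43 ± 0.31 and 4.14 ± 0.32 (± SE, adjusted p = 2.06e-07 and 1.60e-08, edgeR). H9 and H13 of the continuous cohort were left out of the fits, as in the study's own analysis. Each fit used edgeR's quasi-likelihood F test on all 4 groups of a tissue, with p-values adjusted by the Benjamini-Hochberg method over all genes tested and 0.05 as the threshold. "Rose" and "fell" are used only for genes past it, and fold changes are given ± SE. The p-values measure the spread between these mice, and in whole tissue, fewer cells of a type and less RNA per cell cannot be told apart.

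The DNA just before the start of 5 members and between the divergent pair Hadha and Hadhb is shown, to set members that passed the CORT test beside a pair, 2 subunits of 1 enzyme complex, that passed in neither genotype. Of the 8 members that passed in both, Acot1, Bdh1, Acaa1b and Acadm are those with a RefSeq entry whose vehicle and CORT livers did not overlap in either genotype, and Fabp1 was added as the most abundant member. Sequences are those of RefSeq on GRCm38.p6, read 5′ to 3′ on the strand of the gene and ending at the RefSeq start or the start in the gene annotation, whichever comes first. Capitals mark TGTTCT or AGAACA (the hexamer of the GR element), AGGTCA or TGACCT (the hexamer of the PPARalpha element) and GGGCGG or CCGCCC (the GC box), each pair being the 2 strands of 1 motif. Acot1 lies at chr12:84009252-84009489 on the plus strand, Bdh1 at chr16:31422047-31422279 on the plus strand, Fabp1 at chr6:71199629-71199826 on the plus strand, Acaa1b at chr9:119157094-119157343 on the minus strand, Acadm at chr3:153944644-153944893 on the minus strand, and the gap between Hadha and Hadhb at chr5:30155163-30155247, printed on the plus strand of Hadhb.
Acot1: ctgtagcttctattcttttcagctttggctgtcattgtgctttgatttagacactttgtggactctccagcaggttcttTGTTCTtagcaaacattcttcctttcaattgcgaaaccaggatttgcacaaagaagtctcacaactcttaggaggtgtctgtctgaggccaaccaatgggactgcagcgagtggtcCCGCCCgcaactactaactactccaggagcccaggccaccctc
Bdh1: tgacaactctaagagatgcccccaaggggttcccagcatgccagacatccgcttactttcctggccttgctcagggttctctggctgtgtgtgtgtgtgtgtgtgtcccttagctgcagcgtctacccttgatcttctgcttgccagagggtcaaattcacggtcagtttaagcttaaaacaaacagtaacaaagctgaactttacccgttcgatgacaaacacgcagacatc
Fabp1: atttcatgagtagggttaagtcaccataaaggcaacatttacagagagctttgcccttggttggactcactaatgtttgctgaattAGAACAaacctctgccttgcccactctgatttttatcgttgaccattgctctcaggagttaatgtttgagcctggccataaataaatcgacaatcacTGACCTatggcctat
Acaa1b: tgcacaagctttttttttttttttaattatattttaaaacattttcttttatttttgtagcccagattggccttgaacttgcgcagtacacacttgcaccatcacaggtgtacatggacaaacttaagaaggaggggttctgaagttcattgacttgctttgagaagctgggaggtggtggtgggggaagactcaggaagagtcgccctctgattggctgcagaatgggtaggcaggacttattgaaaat
Acadm: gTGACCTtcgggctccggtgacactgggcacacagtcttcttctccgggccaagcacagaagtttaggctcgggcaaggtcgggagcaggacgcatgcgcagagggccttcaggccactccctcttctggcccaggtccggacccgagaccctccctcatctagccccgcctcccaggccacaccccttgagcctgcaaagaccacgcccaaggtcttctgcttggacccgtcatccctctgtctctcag
Hadha-Hadhb: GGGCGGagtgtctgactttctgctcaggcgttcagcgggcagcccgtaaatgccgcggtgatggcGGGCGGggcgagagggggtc

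A RefSeq window from 250 bases before to 50 after the start was found for 29 of the 33 genes, in 32 windows. None held the full GR element, AGAACA and TGTTCT with any 3 bases between them, present in 0.0091% of all 32851 windows, or the full PPARalpha element, AGGTCA repeated after any 1 base, present in 0.0396%. The single PPARalpha hexamer was found in 31.25% of the members' windows and 16.2552% of all, the single GR hexamer in 9.375% and 18.9735%, and the GC box in 65.625% and 35.658%. Both strands were searched for these exact letters only, so an element with a changed base or outside the windows was not counted. In the Fabp1 stretch, TGACCT is followed after 1 base by TGGCCT, which differs from it by 1 base. The GR hexamer lay in the windows of Acot1, Fabp1 and Hadh. Of the stretches printed, those of Bdh1 and Acaa1b held none of the 3 motifs, but the stretch of Bdh1 belongs to 1 of its 2 RefSeq starts and the window of the other, chr16:31428503-31428802, holds a GC box. A further PPARalpha hexamer of the Fabp1 window lies past the end of the stretch printed.

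CORT for 5 days changed part of the set in liver, in both directions. Of the 32 members tested, 11 passed the test in WT livers, 7 higher and 4 lower, where 18.6% of all genes tested passed, 8.73% higher and 9.9% lower. In AS livers, 12 passed, 8 higher and 4 lower, against 27.5% of all genes, 12.6% higher and 15% lower. The median log2 fold change of the members was 0.043 in WT and 0.094 in AS mice, beside -0.0047 and -0.0032 over all genes, and the median size without sign was 0.119 and 0.268 beside 0.161 and 0.193. The member not tested, Cpt1c, the brain form of carnitine palmitoyltransferase, had at most 0.545 CPM in any liver. 8 members passed in both genotypes, namely Acot1, Angptl4, Cpt2, Slc25a20 and Acadm, which rose, and Bdh1, Acaa1b and Fabp1, which fell, where 13.6% of all genes passed in both with 1 direction. Cd36, Acaa1a and Fgf21 passed in WT livers alone and Acad11, Acot3, Acot4 and Vnn1 in AS livers alone, but no member passed the test of the difference between genotypes, as 0% of all genes did. In that test of the interaction, 1 member and 995 of 12273 genes had an unadjusted p under 0.05 by edgeR, and the Wald test of DESeq2 called 0 members and 9 genes. Vehicle and CORT livers did not overlap for 6 members in WT and 10 in AS mice, against 14.1% and 16.6% of all genes. They did not overlap in either genotype for 5 members, Acot1, Angptl4 and Acadm above and Bdh1 and Acaa1b below, which held for 8.29% of all genes.

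**Figure D1:**
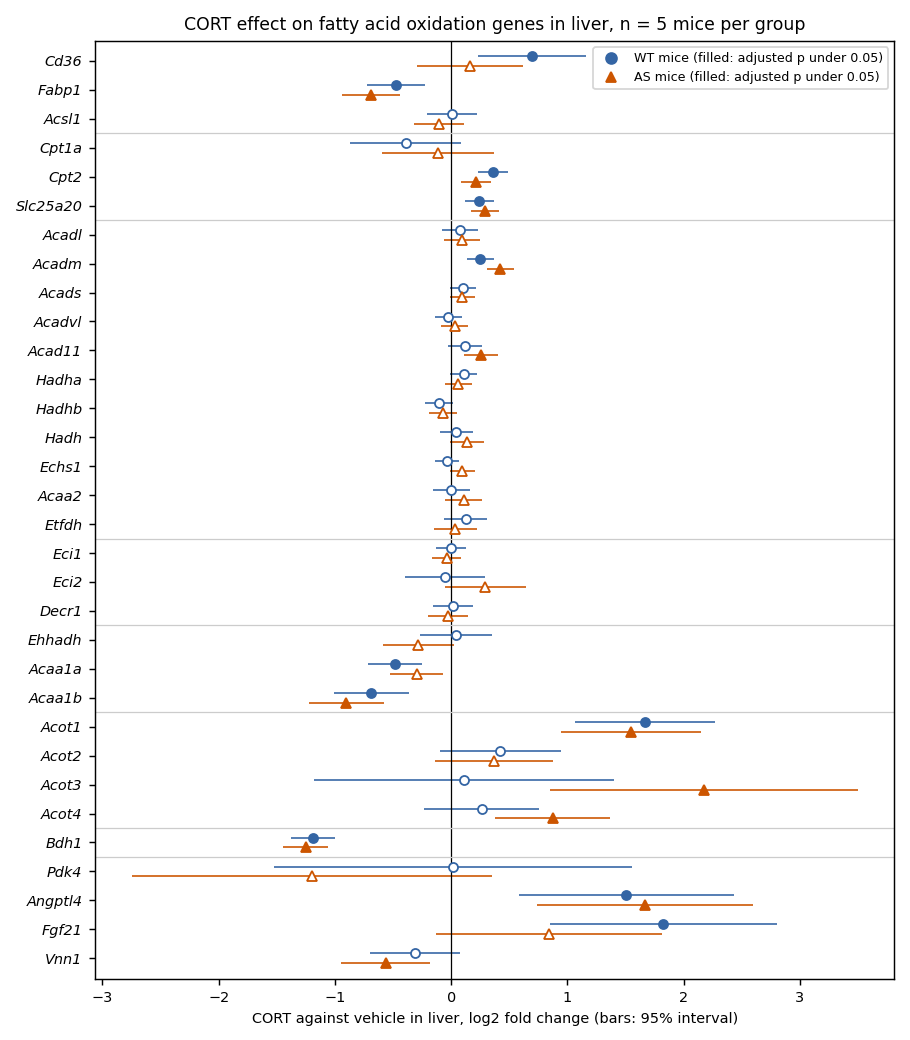
CORT effect on the 32 tested members in liver, as log2 fold change against vehicle with its 95% interval, for WT mice (circles) and AS mice (triangles), 5 mice a group. Members are in the order of their roles, filled symbols passed an adjusted p of 0.05, and most of the spiral enzymes lie within 0.15 of 0 while Acot1 and Angptl4 lie above 1.5 and Bdh1 below -1.1 in both genotypes.

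At the start of the pathway, fatty acid entry and activation, Fabp1 passed in both genotypes, Cd36 in WT livers and Acsl1 in neither. Fabp1 encodes the fatty acid binding protein of the hepatocyte cytosol and was, per kb of exon, the most abundant member, at 5980 ± 1075 CPM per kb (SD, n = 5) in WT vehicle livers. Its levels were 2573, 3045, 3121, 3704 and 4091 CPM in WT vehicle livers and 2206, 2219, 2329, 2547 and 2606 CPM in WT CORT livers. In AS mice, they were 2751, 2806, 2909, 2919 and 3961 CPM with vehicle and 1589, 1775, 1803, 1981 and 2350 CPM with CORT. All AS livers with CORT lay below all with vehicle, and in WT mice the groups overlapped by the lowest vehicle liver alone. Fabp1 fell by 0.47 ± 0.13 in WT (adjusted p = 0.0118, edgeR) and by 0.69 ± 0.13 in AS mice (adjusted p = 0.000379) on the log2 scale. Without L1 to L4, 4 livers that stood apart and are described below, the WT value was -0.33 with an adjusted p of 0.0534.

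Cd36, a fatty acid transporter of the cell surface, had 10.9, 12.3, 14.8, 15.4 and 17.7 CPM in WT vehicle livers and 13.3, 18.9, 20.2, 27.8 and 34.8 CPM in WT CORT livers. Of the WT CORT livers, 4 lay above every WT vehicle liver. In AS mice, the levels were 19.002 to 31.0 CPM with vehicle and 18.9 to 38.2 CPM with CORT, almost fully overlapping. Cd36 rose by 0.69 ± 0.24 on the log2 scale in WT mice (adjusted p = 0.0472, edgeR), a call that was lost in 13 of the 20 fits that left out 1 liver (0.49 to 0.84, adjusted p up to 0.171, without any of L3, L4, L6, L7, L10 to L14 and L17 to L20) and without L1 to L4 (0.62, adjusted p = 0.165), and the AS value was 0.16 ± 0.23 (adjusted p = 0.652). Acsl1, which activates long-chain fatty acids to acyl-CoA, lay between 982 and 1395 CPM in all 20 livers and did not pass in either genotype, with log2 fold changes of 0.01 ± 0.11 and -0.11 ± 0.11.

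The carnitine shuttle moves acyl groups across the inner mitochondrial membrane. Slc25a20, the carnitine-acylcarnitine translocase, had 91.3, 96.7, 99.3, 102 and 107 CPM in WT vehicle livers and 107, 112, 117, 123 and 128 CPM in WT CORT livers. In AS mice, the values were 89.6, 95.4, 100.4, 101 and 106 CPM with vehicle and 112, 117, 119, 127 and 128 CPM with CORT. The AS groups did not overlap, and in WT mice the lowest CORT liver lay level with the highest vehicle liver. Slc25a20 rose by 0.24 ± 0.06 in WT (adjusted p = 0.00923, edgeR) and by 0.29 ± 0.06 in AS mice (adjusted p = 0.00166) on the log2 scale.

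Cpt2, which transfers the acyl group back to CoA inside the mitochondrion, had 125, 138, 141, 145 and 149 CPM in WT vehicle livers and 163, 179, 179, 182 and 194 CPM in WT CORT livers, with no overlap. In AS mice, it had 129, 129, 131, 146 and 149 CPM with vehicle and 146, 150.5, 158, 170.1 and 170.2 CPM with CORT, where the lowest CORT liver lay below the highest vehicle liver. The rise was 0.36 ± 0.07 in WT (adjusted p = 0.000619, edgeR) and 0.21 ± 0.07 in AS mice (adjusted p = 0.0218) on the log2 scale, and the AS call was lost without L11 or L19 (adjusted p up to 0.0606). Cpt1a, whose product on the outer membrane performs the step at which entry is controlled, did not pass. It had 209, 262, 278, 468 and 506 CPM in WT vehicle and 195, 220, 246, 255 and 397 CPM in WT CORT livers, and 203, 204, 231, 242 and 422 CPM in AS vehicle and 206, 215, 241, 270 and 272 CPM in AS CORT livers. The high values are those of L1 and L4, L3 and L2, and the log2 fold changes were -0.39 ± 0.25 (adjusted p = 0.299) and -0.11 ± 0.25 (adjusted p = 0.775).

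Of the 11 enzymes of the mitochondrial spiral, 1 passed in WT and 2 in AS livers, where 18.6% and 27.5% of all genes did. Acadm, the dehydrogenase for medium-chain acyl-CoA, had 284, 303, 316, 321 and 331 CPM in WT vehicle livers and 344, 351, 368, 393 and 396 CPM in WT CORT livers. AS livers held 282, 286, 312, 321 and 327 CPM with vehicle and 395, 397, 409, 423 and 425 CPM with CORT. Every CORT liver lay above every vehicle liver of its genotype, and the AS CORT livers reached the top of the WT CORT range or above. Acadm rose by 0.25 ± 0.06 in WT (adjusted p = 0.00534, edgeR) and by 0.42 ± 0.06 in AS mice (adjusted p = 2.82e-05) on the log2 scale, and the difference of 0.17 had an adjusted p of 0.631.

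Acad11, a dehydrogenase of long-chain substrates, rose in AS livers, from 265, 270.2, 275, 288 and 303 CPM to 307, 318, 338, 346 and 362 CPM with no overlap, by 0.25 ± 0.07 on the log2 scale (adjusted p = 0.0155, edgeR). In WT mice the value was 0.11 ± 0.07 (adjusted p = 0.321), and without L1 to L4 it was 0.23. The other members of the spiral stayed close to 0. These were the very long, long and short-chain dehydrogenases Acadvl, Acadl and Acads, the trifunctional subunits Hadha and Hadhb, the hydratase Echs1, the 3-hydroxyacyl-CoA dehydrogenase Hadh, the thiolase Acaa2, and Etfdh, which hands the electrons to ubiquinone. Their log2 fold changes lay between -0.10 and 0.14, with 95% intervals that reached no further than -0.23 and 0.31. Among the enzymes for unsaturated chains, the isomerases Eci1 and Eci2 and the reductase Decr1, 0 of 3 passed in either genotype by edgeR or by DESeq2, and 0 had an unadjusted p under 0.05. Eci2 was the most variable of these, at 98.0 to 214 CPM in WT vehicle livers, and its AS value was 0.29 (adjusted p = 0.232), or 0.42 without L1 to L4.

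Peroxisomes shorten very long chains by a parallel route. Of the 2 peroxisomal thiolase genes in the set, Acaa1b fell with CORT in both genotypes and Acaa1a in WT livers. Acaa1b had 657, 671, 767, 767 and 1008 CPM in WT vehicle livers and 422, 422, 437, 509 and 612 CPM in WT CORT livers. AS livers held 619, 671, 734, 843 and 928 CPM with vehicle and 273, 334, 462, 472 and 491 CPM with CORT. Vehicle and CORT livers did not overlap in either genotype. Acaa1b fell by 0.69 ± 0.16 in WT (adjusted p = 0.00518, edgeR) and by 0.90 ± 0.16 in AS mice (adjusted p = 0.000359) on the log2 scale.

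Its paralog Acaa1a had 119, 136, 146, 183 and 188 CPM in WT vehicle and 101, 105, 111, 111 and 124 CPM in WT CORT livers, and fell by 0.48 ± 0.12 in WT mice (adjusted p = 0.0061, edgeR). In AS mice, the levels were 125 to 164 CPM with vehicle and 97.1 to 131 CPM with CORT, with a value of -0.30 ± 0.12 (adjusted p = 0.0656). Of all 100-base windows of Acaa1b exons, 26.0% occur in another gene, Acaa1a or Dlec1, so the division of reads between the paralogs is uncertain. Ehhadh, the bifunctional hydratase and dehydrogenase of peroxisomes, lay between 210 and 441 CPM in all livers and gave 0.04 ± 0.16 and -0.28 ± 0.16 (adjusted p = 0.899 and 0.196).

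The acyl-CoA thioesterases, which release free fatty acid from acyl-CoA, lie side by side on chromosome 12 between positions 83987861 (Acot2) and 84060402 (Acot3) of GRCm38. Acot1, the cytosolic enzyme, had 11.7, 14.5, 14.7, 18.7 and 19.1 CPM in WT vehicle livers and 29.1, 47.9, 56.2, 58.4 and 59.0 CPM in WT CORT livers. AS livers held 6.69, 15.3, 20.1, 21.8 and 22.5 CPM with vehicle and 24.4, 33.9, 56.5, 66.2 and 71.5 CPM with CORT. All 10 CORT livers lay above all 10 vehicle livers. Acot1 rose 3.19-fold in WT (log2 1.67 ± 0.31, adjusted p = 0.000597, edgeR) and 2.92-fold in AS mice (log2 1.55 ± 0.31, adjusted p = 0.000752).

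The peroxisomal members Acot3 and Acot4 passed in AS livers. Acot3 had 0.771, 0.835, 1.63, 5.58 and 14.97 CPM in WT vehicle livers and 3.39, 4.19, 4.24, 5.78 and 8.07 CPM in WT CORT livers. In AS mice, it had 1.03, 1.53, 1.70, 2.16 and 6.83 CPM with vehicle and 7.06, 7.23, 8.68, 10.1 and 26.9 CPM with CORT. The AS groups did not overlap, while the WT vehicle livers L4 and L1, at 5.58 and 14.97 CPM, lay among or above the CORT livers. Acot3 rose by 2.18 ± 0.68 on the log2 scale in AS mice (adjusted p = 0.0213, edgeR), a call lost without L8, L11, L14 or L19 (adjusted p up to 0.0856), and the WT value was 0.11 ± 0.66 (adjusted p = 0.939).

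Acot4 rose by 0.87 ± 0.25 in AS mice (adjusted p = 0.0148, edgeR), from 30.6, 31.6, 33.4, 38.4 and 54.5 CPM to 56.6, 59.3, 66.0, 72.1 and 91.0 CPM, with no overlap. In WT mice, it had 22.8, 27.3, 36.3, 54.9 and 79.2 CPM with vehicle and 46.7 to 59.0 CPM with CORT, and the value was 0.26 ± 0.25 (adjusted p = 0.534). Without L1 to L4, the WT values were 2.03 for Acot3 and 0.83 for Acot4, but these livers were recognised by members that include both, so the larger values support nothing. The mitochondrial member Acot2 had 2.46 to 8.68 CPM and did not pass, at 0.42 ± 0.26 and 0.37 ± 0.26. Between 8.24% and 17.1% of the 100-base windows of the 4 genes occur in another gene, other Acot genes among them.

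Bdh1, the mitochondrial enzyme that converts acetoacetate to 3-hydroxybutyrate and back, showed the smallest adjusted p of the set in both genotypes. It had 236, 245, 257, 302 and 303 CPM in WT vehicle livers and 102, 115, 115, 121 and 135 CPM in WT CORT livers. AS livers held 223, 234, 244, 262 and 307 CPM with vehicle and 98.5, 99.4, 108, 110 and 118 CPM with CORT. The lowest vehicle liver, at 223 CPM, lay above the highest CORT liver, at 135 CPM, of either genotype. Bdh1 fell to 0.437 of the vehicle level in WT (log2 -1.19 ± 0.10, adjusted p = 4.54e-08, edgeR) and to 0.420 in AS mice (log2 -1.25 ± 0.10, adjusted p = 1.60e-08), and passed in each fit that left out 1 liver. Of its 100-base windows, 8.42% occur in the antisense gene Gm15743, whose reads cannot be told apart without the strand setting. The difference between genotypes was -0.06 (95% interval -0.32 to 0.20, adjusted p = 0.912).

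**Figure D2:**
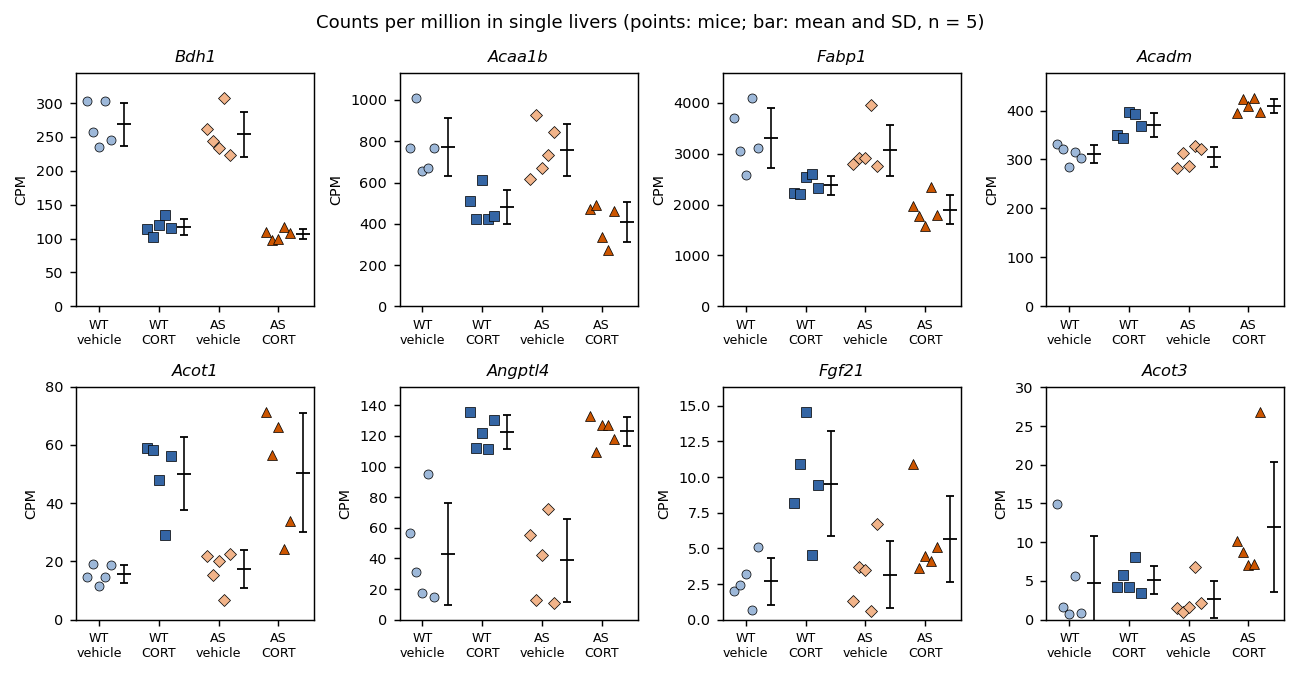
CPM of 8 members in single livers (points), with the mean and SD of each group of 5 mice as bars, on linear axes from 0. Bdh1 and Acaa1b lie lower and Acadm, Acot1 and Angptl4 higher in all CORT livers than in the vehicle livers of the same genotype, and Acot3 has WT vehicle livers at 5.58 and 14.97 CPM.

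The members that signal or switch fuel had wide ranges in vehicle livers. Angptl4 encodes a secreted inhibitor of lipoprotein lipase and had 14.9, 17.2, 31.4, 56.8 and 94.8 CPM in WT vehicle livers and 111, 112, 122, 131 and 136 CPM in WT CORT livers. AS livers had 10.7, 12.6, 42.4, 55.6 and 72.1 CPM with vehicle and 109, 118, 127, 127 and 133 CPM with CORT. The 10 CORT livers lay close together and above all vehicle livers. Angptl4 rose 2.84-fold in WT (log2 1.51 ± 0.47, adjusted p = 0.0294, edgeR) and 3.18-fold in AS mice (log2 1.67 ± 0.47, adjusted p = 0.0124), and the WT call was lost without L5, L6, L12, L13, L17 or L20 (adjusted p up to 0.072).

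Fgf21 encodes a hormone that the liver secretes in fasting. It had 0.704, 2.02, 2.42, 3.18 and 5.11 CPM in WT vehicle and 4.56, 8.18, 9.45, 10.9 and 14.6 CPM in WT CORT livers. In AS mice, it had 0.625, 1.33, 3.49, 3.68 and 6.68 CPM with vehicle and 3.64, 4.14, 4.44, 5.06 and 10.9 CPM with CORT. Of the WT CORT livers, 4 lay above all WT vehicle livers, and of the AS CORT livers, only L10 lay above all AS vehicle livers. Fgf21 rose 3.54-fold in WT mice (log2 1.82 ± 0.50, adjusted p = 0.0134, edgeR). The AS value was 0.84 ± 0.50 (adjusted p = 0.222), and the difference of -0.98 had a 95% interval of -2.35 to 0.39 (adjusted p = 0.715).

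Pdk4 encodes the kinase that inhibits pyruvate dehydrogenase and so spares glucose. It had 0.704, 1.88, 10.2, 11.3 and 25.4 CPM in WT vehicle and 2.18, 8.08, 11.1, 12.1 and 16.5 CPM in WT CORT livers. In AS mice, it had 1.06, 10.8, 17.2, 25.2 and 28.9 CPM with vehicle and 2.83, 3.07, 3.58, 4.62 and 21.8 CPM with CORT. Of the AS CORT livers, 4 lay below 4 of the AS vehicle livers, with L10 and L2 as the exceptions. The log2 fold changes were 0.01 ± 0.79 (adjusted p = 0.994) and -1.20 ± 0.79 (adjusted p = 0.28), and without L1 to L4 the AS value was -1.50. Vnn1, a pantetheinase that frees the vitamin part of coenzyme A for reuse, fell in AS livers from 9.45, 11.2, 11.4, 11.4 and 13.1 CPM to 4.87, 5.21, 8.31, 9.90 and 10.0 CPM, by 0.57 ± 0.19 (adjusted p = 0.0357, edgeR), a call lost without L8, L9, L14, L18 or L19 (adjusted p up to 0.101), and gave -0.31 ± 0.20 in WT mice (adjusted p = 0.308).

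L1 to L4 stood apart from the other livers in several members at once. L1 and L4 are WT vehicle livers, L2 is an AS vehicle liver and L3 a WT CORT liver, and the labels do not say what the numbers stand for. Cpt1a was at 468, 422, 397 and 506 CPM in L1 to L4 and between 195 and 278 CPM in the other 16 livers. Pdk4 was at 1.88, 1.06, 2.18 and 0.704 CPM in L1 to L4 and between 2.83 and 28.9 CPM in the others. Within their groups, these livers held the highest values of 9 of the 32 members, Acaa1a, Acad11, Acadvl, Acot3, Acot4, Bdh1, Cpt1a, Eci2 and Fabp1, and the lowest of 5, Acsl1, Ehhadh, Etfdh, Fgf21 and Pdk4. The 4 livers were recognised by these values, so no test was made of them. With all 4 left out, 12 members passed in WT (9 higher, 3 lower) and 14 in AS mice (9 higher, 5 lower), beside 11 and 12 with them, while the shares of all genes were 17.3% and 34.7% beside 18.6% and 27.5%. Because levels of members marked these livers, all values without them are a description. L7 and L8, both AS CORT livers, lay near them on the surrogate variable, an axis of variation fitted over all genes beside the groups. It was -0.428 to -0.272 in L1 to L4, -0.264 and -0.245 in L7 and L8 and -0.0175 to 0.242 in the other 14 livers. L7 and L8 had 2.83 and 3.07 CPM of Pdk4 and 272 and 269.8 CPM of Cpt1a.

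**Figure D3:**
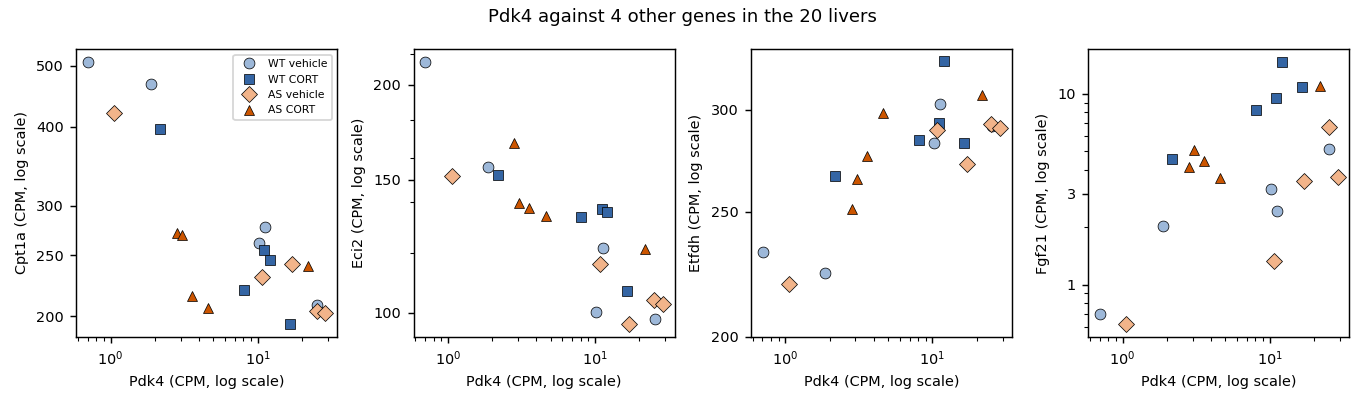
Levels of Cpt1a, Eci2, Etfdh and Fgf21 against Pdk4 in the 20 livers, in CPM on log axes, with 1 point per liver and symbols for the 4 groups. The 4 livers with Cpt1a from 397 to 506 CPM, L1 to L4, are those with Pdk4 from 0.704 to 2.18 CPM, and they come from 3 of the 4 groups.

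Markers of other liver cells moved with CORT as well. The macrophage markers Clec4f, Cd5l, Vsig4, Marco and Timd4 summed to 107 to 142 CPM in WT vehicle and 52.9 to 77.6 CPM in WT CORT livers, and to 139.8 to 196 and 53.9 to 79.3 CPM in AS mice, and 4 of the 5 fell in each genotype. Blood markers summed to 343 to 574 and 229 to 328 CPM in WT and to 243 to 475 and 124 to 192 CPM in AS mice. Hepatocyte markers summed to 92324 to 103398 CPM with vehicle and 99371 to 114398 CPM with CORT in WT mice, and to 88387 to 120115 and 113813 to 137252 CPM in AS mice. Adipocyte and muscle markers stayed at or below 0.344 and 1.11 CPM. The part of these shifts in the members' changes was not tested.

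Other genes of the pathway, from lists drawn up by function, were called in both directions in liver, where 18.6% of all genes passed in WT and 27.5% in AS mice. Of 16 tested genes of uptake and activation, 2 rose and 3 fell in WT and 1 rose and 4 fell in AS mice, with Lpl, the lipoprotein lipase that Angptl4 inhibits, at -1.67 ± 0.33 and -1.80 ± 0.34 in log2 units (adjusted p = 0.00123 and 0.000546, edgeR). Of 8 genes of the carnitine system, 2 rose and 1 fell in WT and 0 rose and 1 fell in AS mice. That gene was in both cases Crot, the peroxisomal carnitine octanoyltransferase, at -1.02 ± 0.25 and -1.33 ± 0.25 (adjusted p = 0.00607 and 0.000476). Of 16 further mitochondrial genes of oxidation, 1 rose and 1 fell in each genotype, Hsd17b10 at 0.46 ± 0.10 and 0.57 ± 0.10 and Acad10 at -0.37 ± 0.09 and -0.26 ± 0.09.

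Of 18 peroxisomal genes, 6 rose and 4 fell in WT and 6 rose and 5 fell in AS mice. Acox2, an oxidase of branched chains and bile acid precursors, rose by 0.65 ± 0.11 and 0.88 ± 0.11, and Abcd2, a transporter of very long acyl chains, was at -1.51 ± 0.36 and -1.73 ± 0.33 (adjusted p = 0.00521 and 0.000512, edgeR). Among the other ketone body genes, the cytosolic dehydrogenase Bdh2 was at -0.50 ± 0.16 (adjusted p = 0.0309) and -0.32 ± 0.16 (adjusted p = 0.136).

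Among 16 genes of PPARalpha and its cofactors, 3 rose and 3 fell in WT and 3 rose and 1 fell in AS mice, with the lipid phosphatase and cofactor Lpin1 at 1.99 ± 0.55 and 2.59 ± 0.56 (adjusted p = 0.0134 and 0.00166, edgeR). Of 10 other targets of PPARalpha, 3 rose and 1 fell in WT and 4 rose and 2 fell in AS mice, led by Cyp4a14, a fatty acid omega-hydroxylase, at 4.18 ± 0.58 and 3.51 ± 0.56 (adjusted p = 3.79e-05 and 9.18e-05). Of 6 genes of the pyruvate dehydrogenase switch, 1 rose in WT and 2 rose and 1 fell in AS mice, with the E1 subunit Pdha1 at 0.31 ± 0.07 and 0.44 ± 0.07 (adjusted p = 0.00306 and 8.30e-05). Of 9 genes of FGF21 receptors and secreted partners, 3 rose and 1 fell in each genotype, among them Klb, the co-receptor of FGF21, at 0.46 ± 0.10 and 0.63 ± 0.10 (adjusted p = 0.00323 and 0.000114).

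AS and WT livers, averaged over treatment, did not differ in any of the 32 members past the threshold, where 0.326% of all genes did, 0.147% higher and 0.179% lower. By edgeR, 4 members and 1229 of 12273 genes had an unadjusted p under 0.05, and DESeq2 called 0 members. These were Cd36 at 0.39 ± 0.17 and Vnn1 at 0.31 ± 0.14, with higher levels in AS mice, and Fabp1 at -0.22 ± 0.09 and Cpt2 at -0.10 ± 0.05, with lower ones (adjusted p from 0.399 to 0.481).

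In hippocampus the set had another profile. Per kb of exon, Cpt1c was its most abundant member, at 25.7 ± 0.196 CPM per kb (SD, n = 4) in WT vehicle mice of the continuous cohort, against 0.0531 ± 0.0146 (SD, n = 5) in liver. Fabp1, the first in liver, and Fgf21 had at most 1 count in the hippocampi of the continuous cohort, apart from H1 and H2, where Fabp1 had 88 and 19 counts. The liver gene Alb had 1931 counts in H1, a WT vehicle mouse, 665 in H2, an AS vehicle mouse, and at most 60 in the others. Cd36, Fabp1, Acaa1b, Fgf21 and Vnn1 were below the filter on low counts, and 28 members were tested.

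After 5 days of CORT, 2 members fell in the hippocampus of WT mice, where 2.92% of all genes passed, 0.803% higher and 2.11% lower, and 1 rose in AS mice, where 3.77% did, 2.03% higher and 1.75% lower. The median log2 fold change of the members was -0.066 and 0.014, beside 0.0034 and -0.0027 over all genes. Cpt1a had 29.8, 31.3, 32.6 and 37.5 CPM in WT vehicle and 23.7, 23.9, 24.4, 24.4 and 28.0 CPM in WT CORT mice, with no overlap, and fell by 0.40 ± 0.09 (adjusted p = 0.0182, edgeR). AS mice had 24.8 to 29.1 and 20.9 to 29.4 CPM, a value of -0.09 ± 0.09 (adjusted p = 0.739), and the interaction had an unadjusted p of 0.023 and an adjusted p of 1. Decr1 had 14.1, 14.6, 14.9 and 15.3 CPM in WT vehicle and 12.02, 12.1, 12.3, 13.1 and 13.3 CPM in WT CORT mice, and fell by 0.23 ± 0.06 (adjusted p = 0.039). Both calls were lost with all 20 hippocampi and without H17 (adjusted p up to 0.0904 for Cpt1a), and that of Decr1 also without H1, H4, H5, H8, H12 or H20 (adjusted p up to 0.13) and without H1 and H2 together.

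Pdk4 rose in AS hippocampus from 8.80, 9.80, 11.7 and 11.9 CPM to 13.8, 15.4, 18.7, 20.4 and 27.2 CPM, with no overlap, by 0.85 ± 0.21 on the log2 scale (adjusted p = 0.0227, edgeR). In WT mice, it had 9.15 to 13.6 and 10.8 to 21.3 CPM and a value of 0.40 ± 0.21 (adjusted p = 0.367), and 0 members passed the interaction, as 0% of all genes did. By edgeR, 3 members and 561 genes had an unadjusted p under 0.05 for it. The Pdk4 call was lost without H2, H7, H14 or H16 (adjusted p up to 0.0652) and with all 20 hippocampi. Astrocyte markers summed to 1349 to 1522 CPM with vehicle and 971 to 1145 CPM with CORT in WT mice, and to 1216 to 1325 and 989 to 1161 CPM in AS mice. Choroid plexus markers summed to 77.3 to 2893 and 36.6 to 128 CPM in WT and to 85.5 to 329 and 46.4 to 507 CPM in AS mice. Microglia markers summed to 330 to 367 CPM with vehicle and 283 to 321 CPM with CORT in WT mice, which did not overlap, and to 302 to 335 and 273 to 311 CPM in AS mice. Blood markers, at 40.9 to 58.8 and 75.3 to 186 CPM, did not overlap in WT mice either, and in AS mice they summed to 53.1 to 118 and 37.6 to 174 CPM. Brain endothelium markers summed to 208 to 245 and 165 to 208 CPM in WT and to 191 to 218 and 165 to 215 CPM in AS mice. The part of these lists in the members' values was not tested. No member differed between AS and WT mice, where 0.348% of all genes did, 0.167% higher and 0.181% lower, with 2 members at an unadjusted p under 0.05, as 12.9% of all genes were, and 0 called by DESeq2.

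At 3 h after the injection, 1 member rose in the hippocampus of WT mice, where 1.48% of all genes passed, 1.06% higher and 0.417% lower, and 6 in AS mice, where 17.9% did, 8.25% higher and 9.62% lower. The median log2 fold change of the members was 0.025 and 0.090, beside -0.0023 and 0.0064 over all genes. Angptl4 passed in both genotypes. Its lowest, median and highest values were 1.30, 1.56 and 2.01 CPM in WT vehicle and 2.02, 2.70 and 3.19 CPM in WT CORT mice, and 1.07, 1.72 and 2.18 CPM in AS vehicle and 1.76, 2.88 and 3.87 CPM in AS CORT mice. The WT groups did not overlap and the AS groups did, and Angptl4 rose by 0.77 ± 0.19 in WT (adjusted p = 0.0354, edgeR) and by 0.81 ± 0.19 in AS mice (adjusted p = 0.00566). The WT call was lost without H1, H2, H3, H4, H6, H7, H9, H10 or H12 (adjusted p up to 0.0938).

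Pdk4 had 7.90, 8.56 and 9.51 CPM in WT vehicle and 7.62, 11.2 and 13.4 CPM in WT CORT mice, and 6.41, 7.02 and 7.99 CPM in AS vehicle and 8.58, 11.2 and 13.2 CPM in AS CORT mice. The AS groups did not overlap, and Pdk4 rose by 0.65 ± 0.12 in AS mice (adjusted p = 0.000672, edgeR), with a WT value of 0.38 ± 0.11 (adjusted p = 0.12). Eci2 rose in AS mice from 15.3, 17.2 and 19.1 CPM to 21.2, 21.8 and 22.8 CPM, by 0.35 ± 0.06 (adjusted p = 0.000676), and had 19.7 to 21.4 and 19.997 to 26.8 CPM in WT mice. Acadl, Acadvl and Acot3 rose in AS mice by 0.18 ± 0.06, 0.21 ± 0.06 and 0.46 ± 0.15 (adjusted p = 0.0259, 0.022 and 0.0359). Averaged over treatment, Eci2 was the member that differed between genotypes, lower in AS mice by 0.18 ± 0.04 (adjusted p = 0.0113), where 14.2% of all genes passed, 6.17% higher and 8.01% lower.

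No member passed the interaction in the acute cohort by edgeR, where 4.49% of all genes did, 1.43% with a positive and 3.06% with a negative value. Of the 28 members tested, 4 had an unadjusted p under 0.05, as 23.6% of all genes did, and limma-voom called 7, beside 22.9% of all genes. The AS values carry a limit. Libraries H17 to H24, which are 2 of the 6 AS vehicle mice and all 6 AS CORT mice, had 2640 to 2850 reads set aside for low alignment quality, against 1877 to 2237 in the other 16. With a covariate for these libraries, 0 members passed for CORT in AS mice and 0 for AS against WT, beside 6 and 1, and the shares of all genes were 1.03% and 0.0205%, beside 17.9% and 14.2%. Only those 2 AS vehicle mice separate the covariate from CORT in AS mice, so the lower counts cannot be told apart from lost power. The part of this division in the values was not tested. Marker lists of other cells lay apart in part in acute AS mice, with vehicle and CORT mice overlapping in each. Astrocyte markers summed to 1021 to 1176 CPM with vehicle and 1136 to 1251 CPM with CORT, neuron markers to 5956 to 6733 and 5337 to 6522 CPM, brain endothelium markers to 159 to 188 and 141 to 161 CPM and adipocyte markers to 5.42 to 7.84 and 7.83 to 9.65 CPM. In WT mice, the same lists summed to 1055 to 1276 and 1056 to 1226, 5413 to 7549 and 5799.6 to 6744, 127 to 193 and 148 to 204, and 4.82 to 7.88 and 5.83 to 12.6 CPM. Their part in the members' values was not tested.

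**Figure D4:**
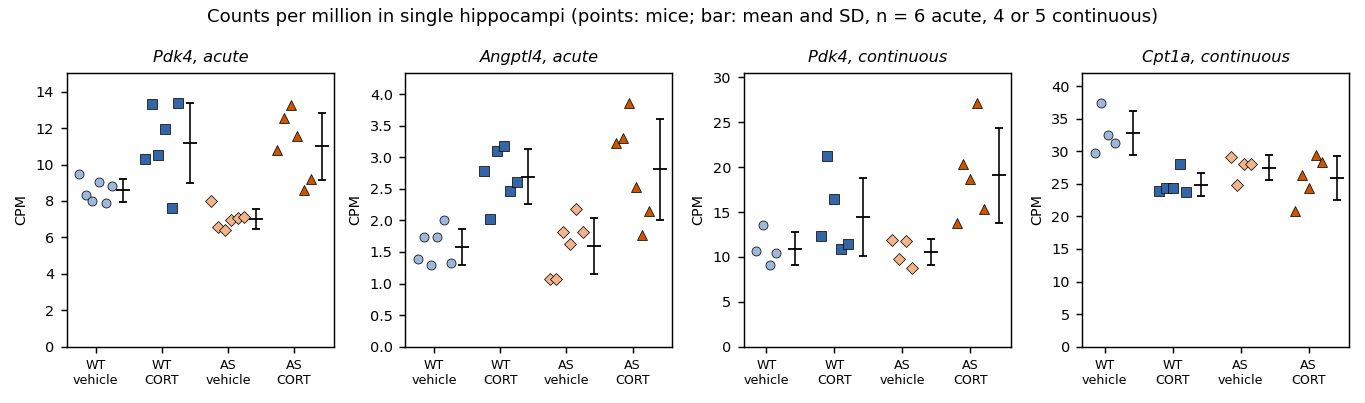
CPM of Pdk4, Angptl4 and Cpt1a in single hippocampi (points), with the mean and SD of each group as bars, for 6 mice a group in the acute and 4 or 5 in the continuous cohort. Pdk4 lies higher in all AS CORT mice than in the AS vehicle mice of the same cohort, and Cpt1a of the continuous cohort lies lower in all WT CORT than in all WT vehicle mice.

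The CORT effect in liver, averaged over genotype, was then compared with that in the hippocampus of the same cohort. Of 33 members tested, 13 differed, 11 with the more positive value in liver and 2 with the more negative, where 19.9% of all genes tested did, 11% more positive and 8.95% more negative. Cd36, Fabp1, Fgf21, Acaa1b and Vnn1 entered this test through liver counts alone and Cpt1c through hippocampal counts alone. Of the 27 members past the filter in both tissues, 11 differed, 9 more positive and 2 more negative, where 24% of all such genes did. The median difference over the 33 was 0.148 on the log2 scale, beside 0.016 over all genes. Bdh1 had the smallest p, with a CORT effect lower in liver by 1.13 ± 0.09 (adjusted p = 1.68e-11, edgeR). In hippocampus it had 44.0 to 56.3 CPM in WT and 42.4 to 54.9 CPM in AS mice, and CORT gave -0.14 ± 0.07 (adjusted p = 0.319) and 0.01 ± 0.07 (adjusted p = 0.971).

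Acot1 differed by 1.60 ± 0.25 (adjusted p = 9.68e-06, edgeR), Angptl4 by 1.57 ± 0.50 (adjusted p = 0.0237) and Acot4 by 0.77 ± 0.23 (adjusted p = 0.015), a call lost with all 20 hippocampi, H9 and H13 included (0.54, adjusted p = 0.226). Acot1 kept to 10.1 to 14.95 CPM in all hippocampi of the fit. The carnitine and dehydrogenase members Cpt2, Slc25a20, Acadm, Acads and Acad11 differed by between 0.23 and 0.42, each with the more positive value in liver. Of these, Acad11 lost its call with upper-quartile normalization (adjusted p = 0.0589) and with no filter (adjusted p = 0.0628), and Cpt2 was at 0.83 with all 20 hippocampi. Cd36 passed at 1.27 ± 0.38 (adjusted p = 0.0148), but it was below the filter in hippocampus, at no more than 1.09 CPM, and nothing is read from the value. Acaa1a (-0.37 ± 0.11, adjusted p = 0.01) and Hadh (0.25 ± 0.09, adjusted p = 0.037) passed. With the mouse as a replicate block these and Fabp1 did not (adjusted p = 0.051, 0.0624 and 0.156), which left 10 members. Hadh also lost its call with DESeq2 size factors, with upper-quartile normalization, with no filter and without H1 and H2. With all 20 hippocampi, Acaa1a lost its call (adjusted p = 0.0716) and Hadh was at 0.43. Fabp1 gave 4.51 ± 1.51 (adjusted p = 0.0322), a value that rests on the counts in H1 and H2 and was -1.43 without them, so no direction is given.

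**Figure D5:**
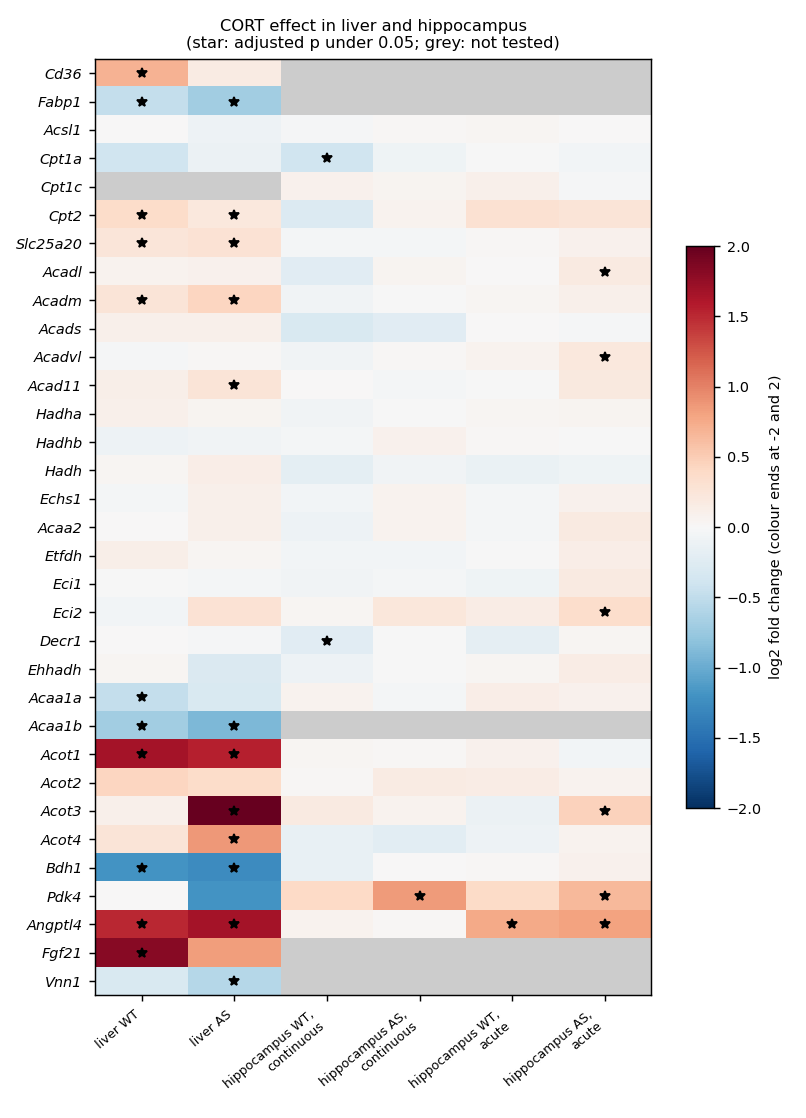
CORT effect on each member in liver and in both hippocampal cohorts, for WT and AS mice, as log2 fold change from blue (lower) to red (higher), with stars for an adjusted p under 0.05 and grey for members not tested. Bdh1, Acot1 and Acadm carry stars in both liver columns and none in hippocampus, and Angptl4 has stars in liver and in the acute hippocampus.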

How the data were processed

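RNA of 64 samples, 24 acute hippocampi and 20 hippocampi and 20 livers of the continuous cohort, was read as gene counts. The authors made stranded libraries of poly(A) RNA, sequenced them on the DNBseq platform, aligned the reads to mm10 with STAR and deposited raw counts per gene from HTSeq within the BioWDL pipeline, without normalization or pooling. The annotation release, the strand setting and the versions of STAR and HTSeq are not given in the sources used here. Reads on no gene, 11.7% to 23.3% of a library, were left out. 0 columns belonged to no sample. Symbols and positions came from GRCm38 and were found for 55394 IDs of the continuous and 52081 of the acute table.

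Groups were taken from the labels. A gene was tested when at least 3 replicates of a group had over 20 counts after median-of-ratios scaling. This kept 12273 genes in liver, 14949 in the continuous and 14611 in the acute hippocampus and 15937 in the comparison of tissues. Models were fitted in R 4.3.3 with edgeR 4.0.16 (quasi-likelihood F test, TMM normalization). CPM values are TMM-normalized, log2 CPM used a prior count of 2, and intervals are at 95%. Scripts were tested on simulated data.

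Liver and hippocampus libraries with the same number were taken as 1 mouse, since both tissues were collected from each mouse and the numbers fall in the same groups. Over 18 such pairs, the correlation of their deviations from group means ran from -0.038 to 0.042, and 2 livers correlated best with their own number. The fit without the block is the main one.

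The members and the other gene lists were chosen with earlier results of these data known. All 33 members may be named, and of every other list up to 3 genes with the largest mean CORT effect in liver among those past the threshold, with marker and check genes where a member's result turns on them. The counts of the list of other ketone body genes are not reported here. Alternatives were DESeq2 1.42.0 (its size factors and its Wald test), upper-quartile normalization, limma-voom with sample weights (limma 3.58.1), no filter, 1 surrogate variable (sva 3.50.0), only the 2 groups compared, an adjusted p under 0.01, each replicate left out, all 20 hippocampi and the block. A covariate for H17 to H24 was also run. Fits without H1 and H2 and without L1 to L4, and the count among members past the filter in both tissues, were chosen after seeing the data.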

Additional observations from a re-analysis of the deposited data

Results flagged for a closer look

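Among 352 groups of 4 to 6 values of single members, 21 held 1 library far from the rest, judged by its gap to the nearest value against the whole range of the group. Chance sets about 1 in 20 groups apart in this way. In liver, L2 of the AS vehicle group accounted for 4 of these, with Cpt1a at 422 CPM (others 203 to 242), Fabp1 at 3961 CPM (others 2751 to 2919), Acsl1 at 1094 CPM (others 1306 to 1382) and Etfdh at 220 CPM (others 273 to 292). L17 of the WT vehicle group was low in Acads, at 157 CPM (others 182 to 191), and in Echs1, at 258 CPM (others 273 to 279). L15 was low in Acads among WT CORT livers, at 179.8 CPM (others 195 to 201). L9 was high in Eci1 among AS vehicle livers, at 116 CPM. Among AS CORT livers, L8 was high in Acot3, at 26.9 CPM (others 7.06 to 10.1), and L10 in Pdk4, at 21.8 CPM (others 2.83 to 4.62).

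In the continuous hippocampus, H16 was high among AS CORT mice in Acad11, at 22.1 CPM, and in Ehhadh, at 4.90 CPM, and H7 was low in Acadm, at 27.3 CPM. H5 was high among WT CORT mice in Angptl4, at 2.94 CPM (others 1.34 to 1.61), and H3 in Cpt1a, at 28.0 CPM. H4 was high among WT vehicle mice in Acot3, at 4.08 CPM. In the acute cohort, H20 was low among AS CORT mice in Acad11, at 15.8 CPM, and H21 in Acot4, at 3.77 CPM. Among WT mice, H8 was high in Echs1 with CORT, at 41.9 CPM (others 27.4 to 31.0), H3 was low in Cpt1a with vehicle, at 25.3 CPM, and H4 in Eci2, at 19.7 CPM.

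The CORT effect differed between liver and continuous hippocampus, by the test of the difference itself, for 13 members. On the log2 scale, liver minus hippocampus, the difference was -1.13 for Bdh1, -0.37 for Acaa1a, 0.23 for Acad11, 0.25 for Hadh, 0.33 for Slc25a20, 0.39 for Acads, 0.40 for Acadm, 0.42 for Cpt2, 0.77 for Acot4, 1.27 for Cd36, 1.57 for Angptl4, 1.60 for Acot1 and 4.51 for Fabp1. The value of Fabp1 rests on H1 and H2 and was -1.43 without them, so it has no direction, and Cd36 was below the filter in hippocampus. With the mouse as a replicate block, Acaa1a, Hadh and Fabp1 did not pass.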

How the results depend on the processing

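Of 1120 alternative values of called members, 1119 kept their direction and 985 their call, while 134 lost it. They include the stricter threshold, which reuses the main values, and the fits that left out 1 library, which share most of their data. Kept direction was therefore in part given in advance. The exception in direction was Fabp1 between tissues, at -1.43 without H1 and H2. With an adjusted p under 0.01, the members called were 7 in WT and 6 in AS livers, 0 and 0 in the continuous hippocampus, 0 and 3 in the acute, 0 for AS against WT there, and 6 between tissues. In the WT continuous hippocampus, 1 was called by DESeq2's Wald test, with no filter, with only the 2 groups or without H1 and H2, and 0 with all 20 hippocampi. In the AS continuous hippocampus, 0 were called with all 20 hippocampi or without H1 and H2. In the acute cohort, limma-voom called 2 in WT, 10 in AS and 7 for the interaction, no filter left 3 in AS, and the covariate for H17 to H24 left 0 in AS and 0 for AS against WT. With the mouse as a replicate block, 10 members and 2507 genes were called between tissues, against 13 and 2994 in the same mice without it. Leaving out 1 library gave 9 to 11 members in WT and 9 to 13 in AS livers, 0 to 2 in WT and 0 to 1 in AS continuous hippocampus, and 0 to 2 in WT and 3 to 7 in AS acute hippocampus. It gave 1 to 3 for AS against WT and 0 to 1 for the interaction in the acute cohort, and 0 to 0 for both in liver and continuous hippocampus. The 3 in AS acute mice came without H14 or H16, and the 3 for AS against WT without H8 or H15. Over all genes, the acute interaction called 656, but 3353 by limma-voom, 1226 by DESeq2, 297 with no filter, 1 with the covariate for H17 to H24 and 0 (without H14) to 1564 (without H17) with 1 library left out. That covariate left 150 of 2612 genes for CORT in AS and 3 of 2073 for AS against WT acute mice, and voom called 5056 and, in WT, 341 in place of 216 (132 with only the 2 groups). AS against WT called 40 in liver, 100 by DESeq2, 94 with the surrogate variable, 25 without L1 to L4 and 16 to 41 with 1 library left out. In the continuous hippocampus it called 52, 293 by DESeq2, 363 by voom, 2 with all 20 hippocampi and 24 to 264 with 1 library left out. CORT there called 436 in WT and 564 in AS mice, 203 and 221 with all 20 hippocampi, 285 in WT with only the 2 groups and 872 in AS by voom. The cause of these shifts was not tested. Single libraries were not left out of the comparison of tissues. Low counts of Fabp1, Fgf21, Cd36 and Vnn1 in hippocampus limit their comparison between tissues.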

Other observations

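Pdk4 was the member that varied most within groups in liver. Over the 16 livers other than L1 to L4, the deviations of log2 CPM from the group means were compared between Pdk4 and the 31 other tested members, with 100000 permutations within groups for each. Fgf21 had the highest Pearson's r, 0.78 (permutation p = 0.00524, adjusted p = 0.162), with a Spearman's rho of 0.76 (permutation p = 0.00591, adjusted p = 0.183), and r was 0.80 without the 2 livers farthest from the median of Pdk4. Eci2 had an r of -0.65 (permutation p = 0.0248, adjusted p = 0.384) and a rho of -0.63 (permutation p = 0.0176, adjusted p = 0.274), and r was -0.62 without those 2 livers. Of the 31 members, 0 passed after adjustment by either measure. This comparison was chosen after seeing the data.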
